A study of Mus musculus with 16 samples.

Results

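The 9 genes described here encode subunits of class I phosphoinositide 3-kinase (PI3K) and phosphatases that oppose its signal. They were chosen by name from a table of 55487 mouse genes, and all 9 were expressed highly enough to enter the test, which covered 24252 genes. They comprise 4 catalytic subunits (Pik3ca, Pik3cb, Pik3cd and Pik3cg), 3 regulatory subunits (Pik3r1, Pik3r2 and Pik3r3) and 2 phosphatases (Inpp4b and Phlpp1). RNA was sequenced from 16 samples of mouse mammary organoids, multicellular structures grown from tissue cells with epidermal growth factor, Noggin and Rspo1 in the medium. WT organoids (n = 3) came from normal breast. PIK3CA mutant (n = 4), HER2 mutant (n = 4) and double mutant organoids (n = 5) came from breast tumors, so mutation and tissue source cannot be told apart in any comparison with WT. The series title names the alleles HER2 V777L and PIK3CA H1047R. The labels do not say which promoter or recombinase carried them, whether the mutant copies were mouse or human sequence, or whether samples of 1 group came from separate animals. P-values may therefore measure spread that is partly technical.

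PI3K phosphorylates phosphatidylinositol lipids in the plasma membrane, which recruits and activates the kinase AKT. A class IA enzyme is a dimer of a p110 catalytic subunit and a p85-type regulatory subunit that stabilises it, holds it inactive and docks it to phosphorylated receptors and adaptors. INPP4B removes a phosphate from the lipid product further down the pathway, and PHLPP1 removes a phosphate from AKT itself. In mammary epithelium this route carries signals of ErbB and insulin-like growth factor receptors, and PIK3CA is among the genes most often mutated in breast cancer.

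Total counts ranged from 45545182 to 64168308 per sample. Levels are given as CPM, the counts of a gene per 1000000 counts of the library, after TMM scaling, and a difference was called when the adjusted p of edgeR's quasi-likelihood test, corrected over all 24252 genes, was under 0.05. The summed level of 5 epithelial markers (Epcam, Cdh1, Krt8, Krt18 and Krt19) was 1935 to 2129 CPM in WT, 2837 to 3462 CPM in PIK3CA mutants, 1685 to 2738 CPM in HER2 mutants and 2594 to 4753 CPM in double mutants, and none of these markers was at 0. As with Pik3ca below, the sum in PIK3CA and double mutants lay above WT without overlap. Krt8 and Krt18 did so in both groups and Epcam in PIK3CA mutants. Cdh1 and Krt19 overlapped with WT in both groups, and Epcam did in double mutants. The part of epithelial content in the results was not tested. Double mutant replicates 2 and 3 stood apart from the other 3 double mutants in several of the genes below, so results that rest on them are also given without these samples. Comparisons that share a genotype share its samples.

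Of the 9 genes, 4 differed between double mutant and WT organoids, where 11.8% of all tested genes were called, 5.03% as higher and 6.72% as lower. Pik3ca and Pik3r3 rose, and Pik3cd and Pik3cg fell. HER2 mutants differed from WT in 2 of the 9 (10.4% of all genes, 4.75% higher and 5.63% lower), with Pik3r3 higher and Pik3cd lower. PIK3CA mutants differed from WT in 1 of the 9 (4.52% of all genes, 1.49% higher and 3.03% lower), the fall of Pik3cd. HER2 and PIK3CA mutants differed in 2 of the 9 (4.41% of all genes, 2.21% higher and 2.2% lower in HER2 mutants), with Pik3ca and Phlpp1 lower in HER2 mutants. Double and HER2 mutants differed in 1 of the 9 (2.5% of all genes, 1.03% higher and 1.47% lower in double mutants), namely in Pik3ca, which was higher in double mutants. Between double and PIK3CA mutants edgeR called 0 of the 9 (0.672% of all genes, 0.309% higher and 0.363% lower in double mutants), 2 had an unadjusted p under 0.05 (12.4% of all genes), and DESeq2 called 1 (2.7% of the genes it tested). Pik3cb, Pik3r1, Pik3r2 and Inpp4b were not called in any comparison.

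The median log2 fold change of the 9 genes was 0.04 in PIK3CA mutants, -0.29 in HER2 mutants and 0.12 in double mutants against WT. The median of all tested genes was -0.03, 0.03 and 0.01 in the same comparisons. Sample ranges did not overlap for 6 of the 9 genes between PIK3CA mutants and WT, against 29.5% of all tested genes. This held for 4 of the 9 between HER2 mutants and WT (22.2% of all genes) and for 5 of the 9 between double mutants and WT (23% of all genes).

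**Figure D1:**
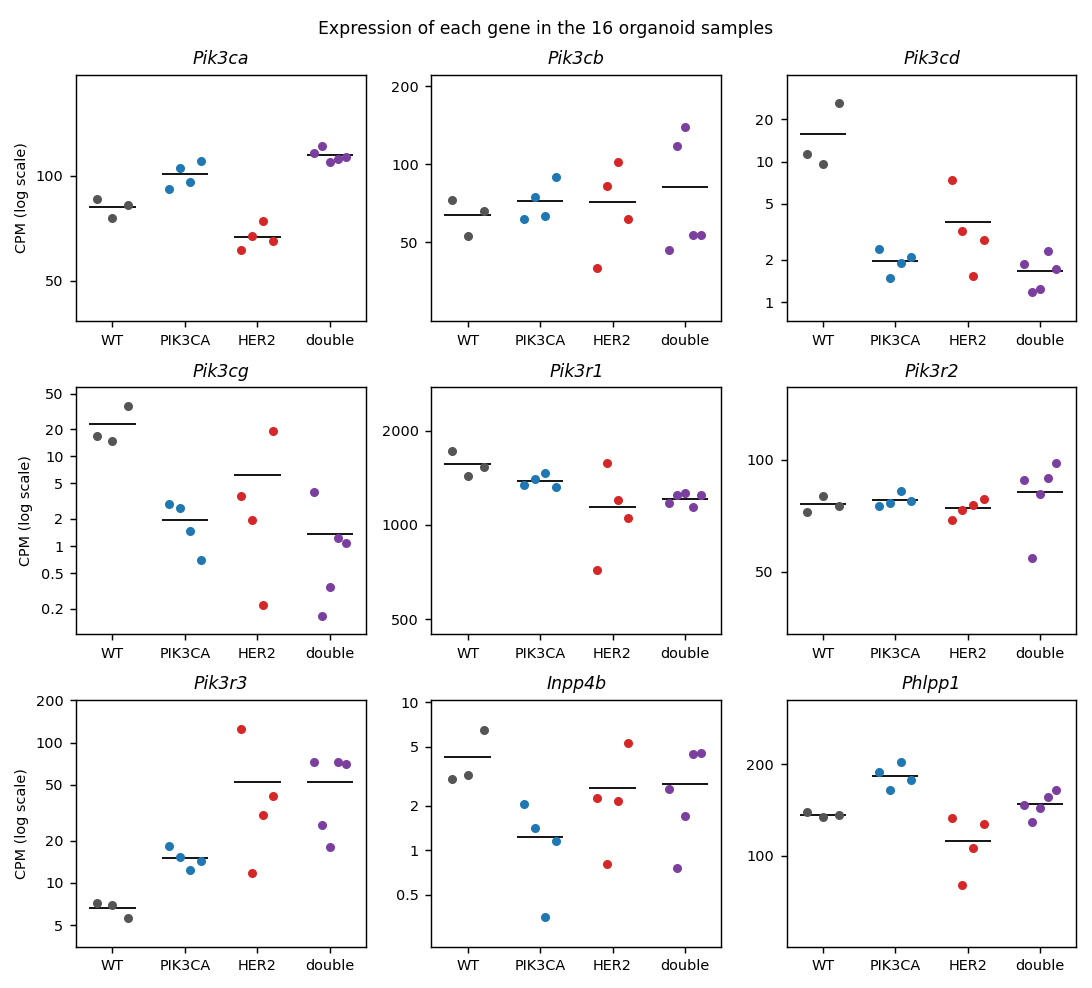
Level of each of the 9 genes in CPM (log scale) in every sample, by genotype; points are samples and bars are group means. Pik3ca was highest in the double mutants, at 109 to 122 CPM, and Pik3cd and Pik3cg were highest in the 3 WT samples apart from HER2 mutant replicate 4, at 19.0 CPM of Pik3cg.

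The genes differed widely in abundance, which was compared per kilobase of exon because the gene models differ in length. On this scale Pik3r1 had the highest median over the 16 samples, at 128 CPM per kilobase. It was followed by Phlpp1 at 20.9, Pik3r2 at 18.4, Pik3ca at 10.3 and Pik3cb at 8.95. Phlpp1 and Pik3r2 overlapped in their ranges (11.9 to 30.0 and 13.0 to 23.4 CPM per kilobase), as did Pik3ca (6.76 to 13.4) and Pik3cb (5.52 to 19.3). Pik3r3 followed at 3.44, and Pik3cd, Pik3cg and Inpp4b were lowest, at medians of 0.354, 0.27 and 0.168 CPM per kilobase. These medians rest mostly on mutant samples: in WT, Pik3cg (1.75 to 4.34) and Pik3cd (1.53 to 4.15) were above Pik3r3 (1.06 to 1.35 CPM per kilobase) in all 3 samples. Pik3r2 varied least over the samples, with 1.8-fold between its lowest and highest level, and Pik3cg varied most, with 218-fold.

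**Figure D2:**
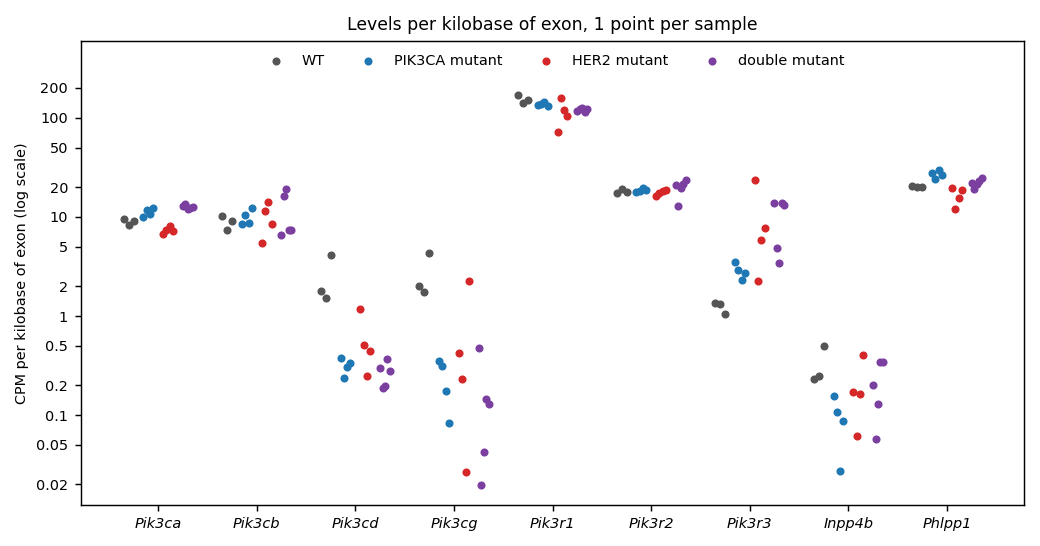
Level per kilobase of exon (log scale) of each gene, with 1 point per sample coloured by genotype. Pik3r1 lies above all other genes in every sample, at 71.3 CPM per kilobase or more, while Inpp4b in all samples and Pik3cd and Pik3cg in most mutant samples lie low, apart from 2.26 CPM per kilobase of Pik3cg in HER2 mutant replicate 4.

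Pik3ca encodes p110alpha, the catalytic subunit that carries the H1047R change in the PIK3CA and double mutants. In the reference mouse gene (ENSMUSG00000027665, GRCm38 chromosome 3, 32397671 to 32468486, plus strand), codon 1047 of 1068 lies in the last exon, in the region that encodes the kinase domain. The reference sequence around it, chr3:32462733-32462795 on the plus strand of GRCm38 (codon 1047, the histidine codon, in capitals), is shown because it is the site the mutant allele is named for.
Pik3ca codon 1047: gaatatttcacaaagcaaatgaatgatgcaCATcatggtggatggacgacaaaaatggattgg
The counts are per gene and cannot separate mutant from wild-type transcripts.

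Pik3ca had 85.7, 75.9 and 82.3 CPM in WT samples and 91.6, 106, 96.1 and 111 CPM in PIK3CA mutants. It had 61.4, 67.4, 74.1 and 65.0 CPM in HER2 mutants and 117, 122, 109, 112 and 114 CPM in double mutants. All PIK3CA mutant samples were above and all HER2 mutant samples below all WT samples, without the differences being called (edgeR adjusted p 0.123 and 0.105). DESeq2 and a fit of only PIK3CA mutant and WT samples called the former (adjusted p 0.0452 and 0.0406). All double mutants were above all WT and all HER2 mutant samples, and they overlapped with the PIK3CA mutants. The level in double mutants was 1.41-fold that in WT (log2 change 0.50, edgeR adjusted p 0.00527, SE 0.103) and 1.71-fold that in HER2 mutants (log2 change 0.78, edgeR adjusted p 0.0011, SE 0.0945). HER2 mutants had 1.51-fold less Pik3ca than PIK3CA mutants (log2 change -0.59, edgeR adjusted p 0.00457, SE 0.0984). Double and PIK3CA mutants differed by 0.18 on the log2 scale (SE 0.0933), with an interval of 1.96 SE from 0.00 to 0.37 (edgeR adjusted p 0.451). These calls of Pik3ca were kept in every fit that left out 1 sample and without double mutant replicates 2 and 3 (log2 change 0.49 against WT and 0.77 against HER2 mutants, edgeR adjusted p 0.0145 and 0.0027).

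The interaction sets the log2 change in double mutants against the single-mutant changes added up, with all changes taken against WT. Mutation and tissue source can therefore not be told apart in the interaction of any gene. For Pik3ca the estimate was 0.46 (SE 0.141). It did not pass the threshold (edgeR adjusted p 0.138), nor did that of any other of the 9 genes, where 1.06% of all tested genes did. Of the 9 genes, 3 had an unadjusted interaction p under 0.05, against 13.6% of all tested genes. DESeq2 called 1, Pik3ca, at an adjusted p of 0.0465, against 3.56% of the genes it tested. Leaving out HER2 mutant replicate 1 gave a call for Pik3cd (2.40, edgeR adjusted p 0.0324). Over the 16 samples, the log2 levels most like that of Pik3ca were those of Csnk1a1 (Pearson r 0.938) and Tkt (0.928), a casein kinase and transketolase. These samples share genotype groups and tissue source, and the correlation is given as a description.

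Pik3cb encodes p110beta, the other widely expressed class IA catalytic subunit. It had 72.6, 52.9 and 65.7 CPM in WT samples and 61.2, 74.4, 63.0 and 89.2 CPM in PIK3CA mutants. It had 39.7, 82.6, 102 and 61.6 CPM in HER2 mutants and 46.7, 117, 139, 53.3 and 53.4 CPM in double mutants. Double mutant replicates 2 and 3 were the highest of all 16 samples, while the other 3 lay below the 2 higher WT samples. Groups overlapped in every comparison, and none was called, with edgeR adjusted p from 0.565 to 0.993. The log2 difference between double mutants and WT was 0.36, with an interval of 1.96 SE from -0.34 to 1.06. Without replicates 2 and 3 it was -0.32 (edgeR adjusted p 0.527), so its direction rested on these samples.

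The same double mutant samples were high in some other genes of the pathway and low in others. Rictor, a subunit of the mTOR complex that phosphorylates AKT, had 333 and 320 CPM in double mutant replicates 2 and 3 and 136 to 164 CPM in the other double mutants. Pik3c2a, a class II PI3K, had 270 and 206 CPM in these samples and 126 to 149 CPM in the others. Erbb2, the gene of HER2, had 2751 and 2705 CPM in them and 1499 to 1649 CPM in the others. Mapkap1 and Mlst8, which like Rictor are AKT and mTOR genes, went the other way. Mapkap1 had 33.5 and 29.9 CPM in replicates 2 and 3, against 43.8 to 50.1 CPM. Mlst8 had 14.0 and 12.2 CPM, against 16.9 to 19.3 CPM. Irs1 was also lower, at 102 and 102 CPM against 162 to 208 CPM. All these genes were chosen after their values were seen. HER2 mutant replicate 3, the third highest sample for Pik3cb, also had the highest Rictor and Pik3c2a of its group, at 302 and 201 CPM.

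Among class I catalytic subunits, Pik3ca made up 39.4% ± 5.08 of the summed level per kilobase in WT (SD, n = 3) and 51.5% ± 1.99 in PIK3CA mutants (SD, n = 4). It made up 40.3% ± 5.68 in HER2 mutants (SD, n = 4), and 53.8% ± 11.5 was its share in double mutants (SD, n = 5). In double mutants the share was 60.8% to 63.8% in replicates 1, 4 and 5 and 44.9% and 38.2% in replicates 2 and 3. The spread within the double mutants thus exceeded the difference between them and the PIK3CA mutants. Pik3cd and Pik3cg held on average 10.5% and 11.4% of the sum in WT and 1.19% and 0.784% in double mutants.

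Pik3cd and Pik3cg encode p110delta and p110gamma, the catalytic subunits known mainly from white blood cells. Pik3cd (ENSMUSG00000039936) lies on chromosome 4, 149649168 to 149702571, and Pik3cg (ENSMUSG00000020573) on chromosome 12, 32173473 to 32208659, both on the minus strand of GRCm38. RefSeq lists several starts for each, and 1 promoter per gene, from 250 bases before to 50 after the start (RefSeq, GRCm38.p6), is shown because both genes were highest in WT. Pik3cd is chr4:149698659-149698958 and Pik3cg is chr12:32208610-32208909, both on the minus strand and written 5′ to 3′. Capitals mark a GC box (GGGCGG) in Pik3cd and the motif AGAGGAAG in Pik3cg, a core recognised by PU.1, the transcription factor of myeloid cells encoded by Spi1.
Pik3cd promoter: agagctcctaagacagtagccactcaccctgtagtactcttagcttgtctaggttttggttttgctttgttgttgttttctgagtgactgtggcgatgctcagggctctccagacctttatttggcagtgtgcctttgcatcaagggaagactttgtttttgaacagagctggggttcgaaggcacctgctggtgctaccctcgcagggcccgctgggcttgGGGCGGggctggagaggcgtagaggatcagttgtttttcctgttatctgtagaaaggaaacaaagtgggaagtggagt
Pik3cg promoter: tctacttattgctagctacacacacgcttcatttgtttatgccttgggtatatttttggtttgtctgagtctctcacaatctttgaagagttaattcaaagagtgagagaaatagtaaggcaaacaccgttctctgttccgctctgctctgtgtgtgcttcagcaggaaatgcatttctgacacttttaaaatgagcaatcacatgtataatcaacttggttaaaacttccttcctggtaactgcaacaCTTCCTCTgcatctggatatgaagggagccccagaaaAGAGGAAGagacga
Searched on both strands, AGAGGAAG had the same 2 matches in both of the overlapping Pik3cg promoters and 0 in the other promoters of the 9 genes. It was found in 4.55% of 32851 RefSeq promoters of the same length. The Pik3cg promoter had a GC content of 40.7% and 4 CG pairs, against a median of 52.7% and 7 CG pairs over all promoters.

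Pik3cd had 11.3, 9.59 and 26.0 CPM in WT samples and 2.37, 1.49, 1.9 and 2.11 CPM in PIK3CA mutants. It had 7.43, 3.22, 1.54 and 2.78 CPM in HER2 mutants and 1.86, 1.17, 1.24, 2.33 and 1.73 CPM in double mutants. Every mutant sample was below every WT sample, and WT replicate 3 was the highest. The level was 7.93-fold lower in PIK3CA mutants (log2 change -2.99, edgeR adjusted p 0.00157, SE 0.463) and 9.36-fold lower in double mutants (log2 change -3.23, edgeR adjusted p 0.000324, SE 0.431) than in WT. In HER2 mutants it was 4.17-fold lower than in WT (log2 change -2.06, edgeR adjusted p 0.0102, SE 0.45). Without WT replicate 3 this last difference was -1.48 and was not called (edgeR adjusted p 0.0911), and in a fit of only HER2 mutant and WT samples it was -2.02 (edgeR adjusted p 0.102). Without double mutant replicates 2 and 3 the difference between double mutants and WT was -2.98 (edgeR adjusted p 0.0045). Double and HER2 mutants differed by -1.17 (edgeR adjusted p 0.127, SE 0.398), which passed the threshold without HER2 mutant replicate 3 (-1.42, edgeR adjusted p 0.0464).

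Pik3cg had 17.0, 14.7 and 36.6 CPM in WT samples and 2.94, 2.62, 1.46 and 0.697 CPM in PIK3CA mutants. It had 3.6, 1.93, 0.223 and 19.0 CPM in HER2 mutants and 3.99, 0.168, 0.353, 1.24 and 1.09 CPM in double mutants. All PIK3CA and double mutant samples were below all WT samples, while HER2 mutant replicate 4 lay within the WT range. The level in double mutants was 16.5-fold lower than in WT (log2 change -4.05, edgeR adjusted p 0.0178, SE 1.03). This call was lost without WT replicate 3 (-3.53, edgeR adjusted p 0.0844) and without double mutant replicates 2 and 3 (-3.43, edgeR adjusted p 0.0755). In PIK3CA mutants the log2 change was -3.56 (edgeR adjusted p 0.0833, SE 1.09), which DESeq2 and a fit of only these samples called at an adjusted p of 0.0265 and 0.00282. In HER2 mutants it was -1.88 (edgeR adjusted p 0.272, SE 1.04), and without replicate 4 it was -3.56 and was called (edgeR adjusted p 0.0391).

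Markers of white blood cells were, like both genes, highest in WT. The summed level of 4 pan-leukocyte markers (Ptprc, Laptm5, Coro1a and Cd53) was 69.7 to 284 CPM in WT, 0.372 to 2.06 CPM in PIK3CA mutants, 0.579 to 19.7 CPM in HER2 mutants and 0.272 to 1.32 CPM in double mutants. That of 8 macrophage and myeloid markers, Spi1 among them, was 526 to 3127 CPM in WT, 14.4 to 37.2 CPM in PIK3CA mutants, 9.31 to 192 CPM in HER2 mutants and 13.0 to 67.9 CPM in double mutants. WT replicate 3 was highest in Pik3cd, Pik3cg and the pan-leukocyte sum, and HER2 mutant replicates 1 and 2 had the highest Pik3cd and pan-leukocyte sums among the mutants. Within the mutant groups the order differed. PIK3CA mutants had pan-leukocyte sums of 0.477, 0.372, 2.06 and 1.02 CPM in replicates 1 to 4, where Pik3cg was highest in replicates 1 and 2. Double mutant replicate 2 had the highest pan-leukocyte and myeloid sums of its group, at 1.32 and 67.9 CPM, with the lowest Pik3cd and Pik3cg. Of these sums, 1.03 CPM were Coro1a and 65.4 CPM were Cd68. Ptprc had 5 counts there, Spi1 and Adgre1 had 1 each, and Cd53 and Itgam had 0. In bulk samples, fewer cells of a type and less RNA per cell cannot be told apart, and the part of white blood cells in these differences was not tested.

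HER2 mutant replicate 4 went against this pattern for Pik3cg. Its pan-leukocyte sum was 1.88 CPM, with 2 counts of Ptprc, 6 of Laptm5, 14 of Coro1a and 70 of Cd53 (1.43 CPM). Of the myeloid markers, Adgre1, Tyrobp and Itgam were at 0 counts and Lyz2, Spi1 and Fcer1g at 6, 7 and 8. Csf1r had 54 and Cd68 had 380 counts. Its Pik3cd was 2.78 CPM, below all WT samples, beside 19.0 CPM of Pik3cg from 929 counts. Its 6 fibroblast markers summed to 624 CPM, the highest of the mutants, against 325 to 1899 CPM in WT, while its epithelial markers summed to 2105 CPM. Fibroblast markers were 65.1 to 471 CPM in PIK3CA mutants and 26.2 to 58.0 CPM in double mutants. PIK3CA mutant replicate 4 had the 471 CPM of these markers and the lowest Pik3cg of its group, at 0.697 CPM. HER2 mutant replicate 2 had 321 CPM of the markers and 1.93 CPM of Pik3cg. The part of fibroblasts in the level of Pik3cg was not tested.

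**Figure D3:**
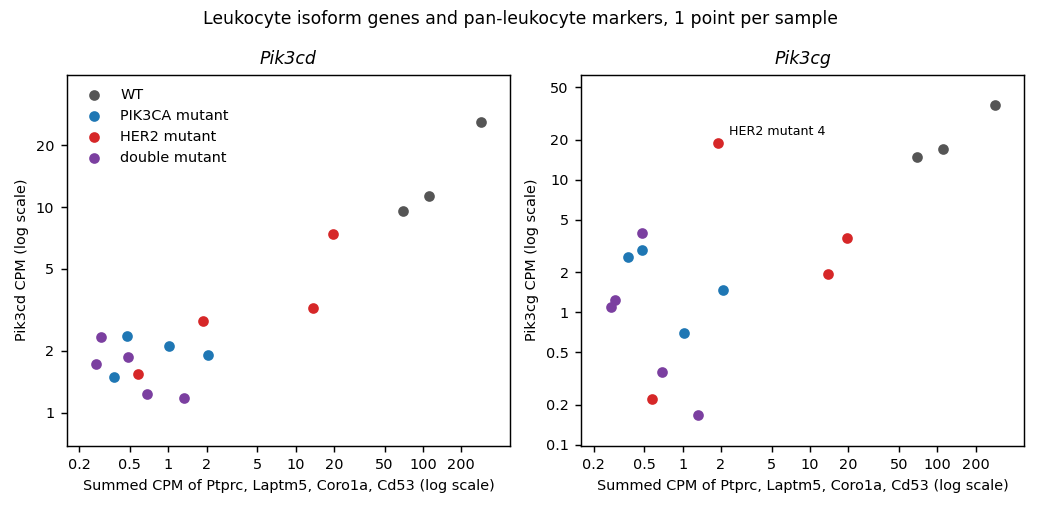
Pik3cd (left) and Pik3cg (right) in CPM against the summed CPM of Ptprc, Laptm5, Coro1a and Cd53, on log scales, with 1 point per sample. The 3 WT samples lie at 69.7 CPM of the markers or more with the highest Pik3cd, and HER2 mutant replicate 4 has 19.0 CPM of Pik3cg at 1.88 CPM of the markers.

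Over the 16 samples, the genes most like Pik3cd in log2 level were Myo5a (Pearson r 0.927) and Abhd12 (0.923), which encode a myosin motor and a lipid hydrolase. Those most like Pik3cg were Acp2 (0.949), a lysosomal acid phosphatase, and Dtna (0.939), a dystrophin-associated protein.

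Pik3r1 encodes p85alpha and its shorter forms, the main regulatory subunit in most tissues. It had 1717, 1431 and 1532 CPM in WT samples and 1345, 1397, 1465 and 1326 CPM in PIK3CA mutants. It had 719, 1580, 1205 and 1055 CPM in HER2 mutants and 1175, 1244, 1260, 1141 and 1242 CPM in double mutants. All double mutants were below all WT and all PIK3CA mutant samples, and HER2 mutants spread over a wider range than any other group. The difference from WT was -0.45 in HER2 mutants (edgeR adjusted p 0.151, SE 0.193) and -0.36 for double mutants (edgeR adjusted p 0.218, SE 0.183), neither of which was called. Without HER2 mutant replicate 2, the highest of its group, the former was -0.65 and was called (edgeR adjusted p 0.024). Double mutants and PIK3CA mutants, whose ranges did not overlap for 1 of the 9 genes (7.92% of all tested genes), differed in Pik3r1 by -0.19 (edgeR adjusted p 0.723, SE 0.17).

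Pik3r2 encodes p85beta. It had 72.4 to 79.9 CPM in WT, 74.8 to 82.4 CPM in PIK3CA mutants, 68.7 to 78.6 CPM in HER2 mutants and 54.4 to 97.7 CPM in double mutants, with double mutant replicate 2 the lowest of all samples. Groups overlapped in every comparison and none was called. The log2 difference from WT lay within intervals of 1.96 SE from -0.26 to 0.34 in PIK3CA mutants, -0.33 to 0.27 in HER2 mutants and -0.17 to 0.40 in double mutants. Pik3r2 shares exon bases with 6330537M06Rik on the opposite strand, and whether counting used strand is not given in the sources used here.

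Pik3r3 encodes p55gamma, a shorter regulatory subunit. In GRCm38 it (ENSMUSG00000028698) lies on chromosome 4, 116221618 to 116303056, on the plus strand, and shares exon bases with Gm49337 on the same strand, a gene with 0 counts in all samples. One of its RefSeq promoters, chr4:116221166-116221465 on the plus strand of GRCm38.p6, is shown because Pik3r3 had the largest rise against WT of the 9 genes. Capitals mark a GC box, searched as GGGCGG on both strands.
Pik3r3 promoter: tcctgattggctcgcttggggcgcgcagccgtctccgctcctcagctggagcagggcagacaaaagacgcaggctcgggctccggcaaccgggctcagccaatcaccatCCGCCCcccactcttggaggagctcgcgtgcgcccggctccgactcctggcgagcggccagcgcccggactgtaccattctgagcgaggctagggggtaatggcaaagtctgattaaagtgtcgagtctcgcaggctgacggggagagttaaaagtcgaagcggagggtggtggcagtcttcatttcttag
GC boxes were found in 11 of the 15 promoters of the 9 genes and in 35.7% of all promoters. The motif TTCNNNGAA of STAT factors had 0 matches in the 15 promoters (8.3% of all promoters), GTAAACA of FOXO factors had matches in 1, of Pik3cg (3.65%), and TGANTCA of AP-1 in 1, of Pik3ca (7.81%).

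Pik3r3 had 7.17, 6.96 and 5.61 CPM in WT samples and 18.4, 15.3, 12.4 and 14.4 CPM in PIK3CA mutants. It had 125, 11.9, 30.7 and 41.3 CPM in HER2 mutants and 72.8, 26.0, 18.0, 73.2 and 70.6 CPM in double mutants. Every mutant sample was above every WT sample. Within the double mutants, replicates 2 and 3 were low and the other 3 lay close together, and HER2 mutants differed among themselves by 10.6-fold. The summed level of 5 secretory luminal markers (Elf5, Csn2, Csn3, Wap and Kit) was 3470 to 5285 CPM in WT and 9017 to 13905 CPM in PIK3CA mutants. It was 20038, 5045, 35887 and 25542 CPM in HER2 mutants and 21213, 10878, 6045, 14000 and 15591 CPM in double mutants. HER2 mutant replicate 2 and double mutant replicates 2 and 3 were lowest of their groups in both this sum and Pik3r3. HER2 mutant replicate 1, highest in Pik3r3, was the third highest of its group in the sum. Most of the sum was Csn3, or in HER2 mutant replicate 3 Csn2. Csn3 and Elf5 were each also lowest in double mutant replicates 2 and 3. Csn2, Wap and Kit were lowest in replicate 3, but replicate 2 was not next. In double mutant replicate 2, Kit (113 CPM) was above replicate 5 (85.3 CPM). Csn2 (12.1 CPM) and Wap (1.22 CPM) were above replicate 4 (7.57 and 0.998 CPM). The part of these markers in the level of Pik3r3 was not tested. HER2 mutants had 7.95-fold more Pik3r3 than WT (log2 change 2.99, edgeR adjusted p 0.0113, SE 0.665) and double mutants 7.92-fold more (log2 change 2.99, edgeR adjusted p 0.00729, SE 0.653). Without WT replicate 3 both calls were lost (2.89 and 2.88, edgeR adjusted p 0.0693 and 0.0525), and the call in HER2 mutants was also lost in a fit of only HER2 mutant and WT samples (3.03, edgeR adjusted p 0.0793). Without double mutant replicates 2 and 3 the difference between double mutants and WT was 3.46 (edgeR adjusted p 0.00467).

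In PIK3CA mutants Pik3r3 had a log2 change of 1.20 against WT (SE 0.616), which was not called (edgeR adjusted p 0.345). A fit of only these samples called it (edgeR adjusted p 0.00259). The difference between HER2 and PIK3CA mutants was 1.79 (edgeR adjusted p 0.0845, SE 0.565), with overlapping samples. It was called without HER2 mutant replicate 2 (2.12, edgeR adjusted p 0.0251) and by DESeq2 (adjusted p 0.0164). Double and PIK3CA mutants differed by 1.78 (edgeR adjusted p 0.177, SE 0.547), which DESeq2 called (adjusted p 0.0268). Double and HER2 mutants differed by 0.00, with an interval of 1.96 SE from -1.02 to 1.01. The genes most like Pik3r3 over the 16 samples were Exoc4 (Pearson r 0.963), a subunit of the exocyst, and Dhcr7 (0.96), an enzyme of cholesterol synthesis.

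**Figure D4:**
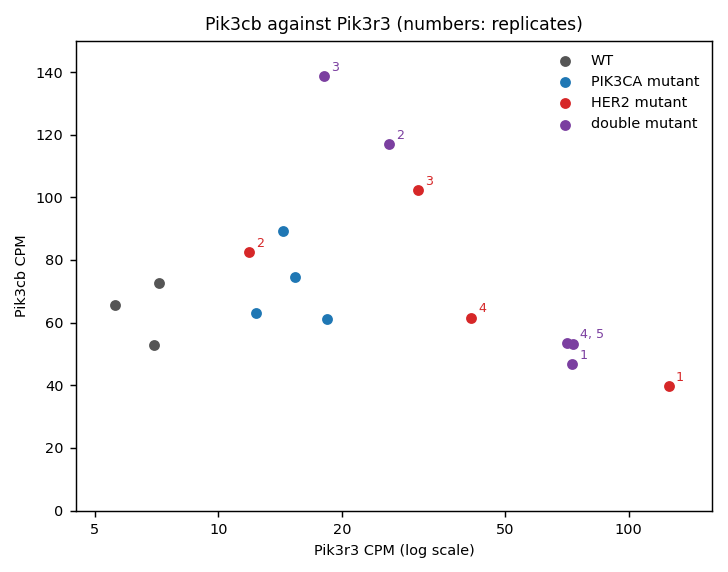
Pik3cb in CPM against Pik3r3 in CPM (log scale), with 1 point per sample and replicate numbers for HER2 and double mutants. Double mutant replicates 2 and 3 have the highest Pik3cb, at 117 and 139 CPM, and the lowest Pik3r3 of their group, at 26.0 and 18.0 CPM, while HER2 mutant replicate 1 has the highest Pik3r3 and the lowest Pik3cb of all samples.

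Per kilobase of exon, Pik3r3 made up 0.714% ± 0.0951 of the 3 regulatory subunits in WT (SD, n = 3) and 1.81% ± 0.349 in PIK3CA mutants (SD, n = 4). It made up 8.12% ± 8.94 in HER2 mutants (SD, n = 4), up to 21.2% in replicate 1, and 6.5% ± 3.34 in double mutants (SD, n = 5). Pik3r1 remained the largest share in every sample, at 64.0% in HER2 mutant replicate 1 and 76.3% or more in the others. The 3 regulatory subunits together were 8.64 ± 0.908 times the class IA catalytic subunits in WT (SD, n = 3) and 7.51 ± 1.07 times in PIK3CA mutants (SD, n = 4). The ratio was 7.96 ± 1.16 in HER2 mutants (SD, n = 4), and double mutants had a ratio of 6.49 ± 1.64 (SD, n = 5). In double mutants it was 4.73 and 4.69 in replicates 2 and 3 and 7.4 to 7.92 in the others, which overlapped with WT at 7.65 to 9.42. These ratios are of RNA and give no protein level.

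Inpp4b encodes the phosphatase that removes the 4-phosphate of phosphatidylinositol 3,4-bisphosphate. It was low in all samples, with 3.04, 3.22 and 6.46 CPM in WT and 2.04, 1.4, 0.354 and 1.14 CPM in PIK3CA mutants. It had 2.24, 0.81, 2.14 and 5.28 CPM in HER2 mutants and 2.61, 0.755, 1.71, 4.47 and 4.51 CPM in double mutants. All PIK3CA mutants were below all WT samples, and the other groups overlapped with WT. The difference between PIK3CA mutants and WT was -1.77 (SE 0.654), and it was not called (edgeR adjusted p 0.16), except in a fit of only these samples (edgeR adjusted p 0.0418). Against WT the difference was -0.70 in HER2 mutants and -0.59 in double mutants, with intervals of 1.96 SE from -1.96 to 0.57 and from -1.79 to 0.61. Its counts were 16 to 387 per sample.

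Phlpp1 encodes a phosphatase of AKT. It had 139, 134 and 136 CPM in WT samples and 189, 164, 203 and 177 CPM in PIK3CA mutants. It had 133, 80.4, 106 and 128 CPM in HER2 mutants and 147, 129, 144, 156 and 165 CPM in double mutants. WT samples lay close together, all PIK3CA mutants were above and all HER2 mutants below them, and the double mutants overlapped with WT. HER2 mutants had 1.64-fold less Phlpp1 than PIK3CA mutants (log2 change -0.71, edgeR adjusted p 0.0115, SE 0.142). A fit of only these 2 genotypes did not call it (-0.72, edgeR adjusted p 0.0695). Against WT the difference was 0.43 in PIK3CA mutants (edgeR adjusted p 0.147, SE 0.154) and -0.29 in HER2 mutants (edgeR adjusted p 0.252, SE 0.152). The former was called when PIK3CA mutants and WT were fitted alone (edgeR adjusted p 0.0112). For double mutants it was 0.12 (edgeR adjusted p 0.641, SE 0.146). Double mutants lay 0.41 above HER2 mutants (edgeR adjusted p 0.115, SE 0.135) and 0.31 below PIK3CA mutants on the log2 scale (edgeR adjusted p 0.359).

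Pik3ca and Phlpp1 were the 2 of the 9 genes whose samples did not overlap between HER2 and PIK3CA mutants, against 12.5% of all tested genes. Between double and HER2 mutants, the samples of Pik3ca alone did not overlap, against 4.59% of all genes. The interaction estimate of Phlpp1 was -0.02, with an interval of 1.96 SE from -0.42 to 0.38. The genes most like Phlpp1 over the 16 samples were Rasl11b (Pearson r 0.926), a small GTPase of the Ras family, and Pald1 (0.915).

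**Figure D5:**
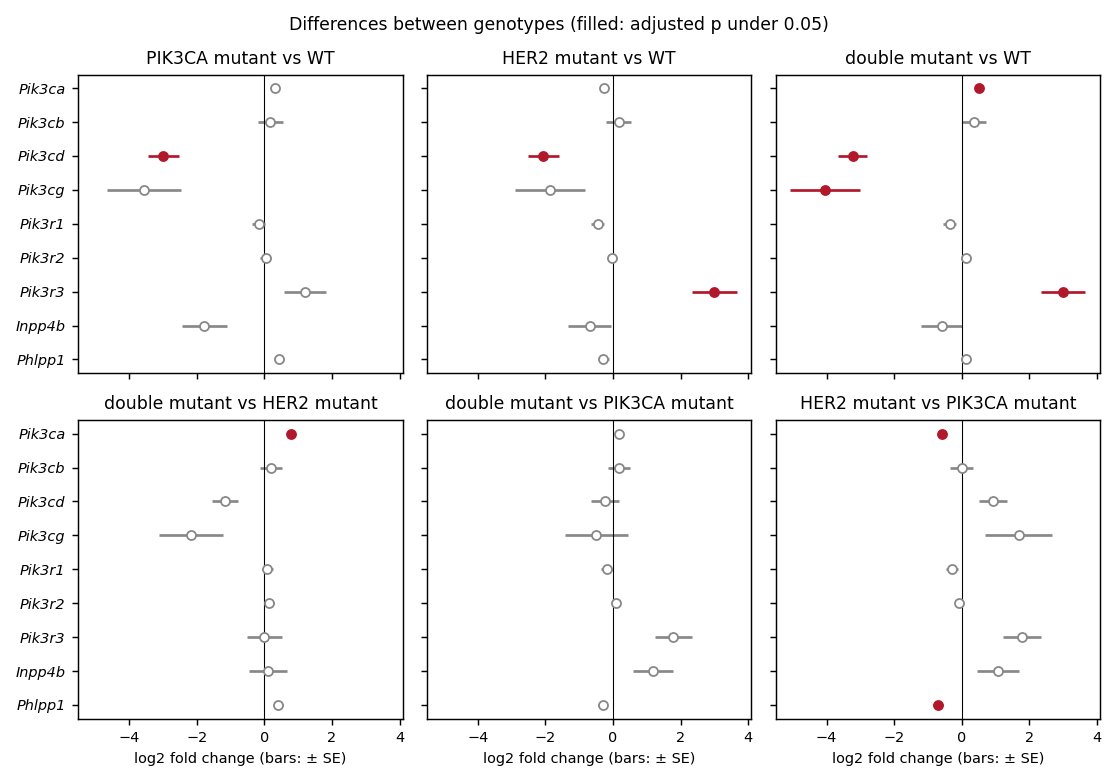
Log2 fold change of each gene in the 6 pairs of genotypes, with bars of 1 SE; filled points have an edgeR adjusted p under 0.05. The filled points are Pik3cd in all comparisons with WT, Pik3r3 in HER2 and double mutants, Pik3cg in double mutants, Pik3ca in 3 comparisons and Phlpp1 between HER2 and PIK3CA mutants.

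Of 43 other genes of the pathway, 0 rose and 3 fell in PIK3CA mutants against WT (4.52% of all genes called), 2 rose and 8 fell in HER2 mutants (10.4%), and 3 rose and 7 fell in double mutants (11.8%). Double mutants were higher in 1 and lower in 3 of them than HER2 mutants (2.5% of all genes), and likewise than PIK3CA mutants (0.672%). HER2 mutants were higher in 1 and lower in 4 than PIK3CA mutants (4.41%). Several of these counts depended on the fit. In fits of only the groups compared, 10 were called in PIK3CA mutants and 2 in HER2 mutants against WT, and 0 between double and HER2 mutants, as with the replicate block. In HER2 mutants against WT, 5 were called without WT replicate 1 or without WT replicate 3. The 3 genes that fell in all mutants against WT were Pik3r5 and Pik3r6, the regulatory subunits that pair with p110gamma, and Inpp5d, the lipid 5-phosphatase of blood cells.

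Pik3r5 had 9.89 to 30.1 CPM in WT and at most 3.43 CPM in any mutant sample (log2 change -3.46, -2.85 and -3.53 in PIK3CA, HER2 and double mutants, edgeR adjusted p 0.00157, 0.00388 and 0.000396). Inpp5d had 8.83 to 40.2 CPM in WT, 3.53 and 1.27 CPM in HER2 mutant replicates 1 and 2 and at most 0.544 CPM in the other mutants (edgeR adjusted p 0.00142, 0.0109 and 0.000677). Pik3r6 had 0.64 to 3.7 CPM in WT and at most 0.283 CPM in the mutants (edgeR adjusted p 0.00558, 0.0268 and 0.00152). In HER2 mutant replicate 4, where Pik3cg was 19.0 CPM, Pik3r5 was 0.655 CPM and Pik3r6 was at 0 counts. In a fit of only HER2 mutant and WT samples, none of the 3 was called (edgeR adjusted p 0.0569 for Pik3r5, 0.118 for Inpp5d and 0.121 for Pik3r6). Without WT replicate 3, Inpp5d and Pik3r6 were not called in HER2 mutants (edgeR adjusted p 0.0697 and 0.212), nor was Pik3r6 without WT replicate 1 (0.0545) or with the replicate block (0.107). Pik3r6 was also not called in PIK3CA mutants without WT replicate 3. These 3 genes were highest in the samples with the highest pan-leukocyte markers, and the part of white blood cells in them was not tested.

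Of 9 receptors and adaptors that recruit PI3K, 3 fell and 1 rose in HER2 mutants against WT (10.4% of all tested genes called). In double mutants 2 fell and 1 rose (11.8% of all tested genes called). Erbb3, the partner of HER2 that binds p85, was 2.06-fold lower in double mutants than in WT (log2 change -1.04, edgeR adjusted p 0.000208, SE 0.128) and 2.27-fold lower than in PIK3CA mutants (log2 change -1.18, edgeR adjusted p 0.000332, SE 0.12). Gab1, an adaptor that docks p85, was 1.88-fold lower in HER2 mutants (log2 change -0.91, edgeR adjusted p 0.000735, SE 0.124) and 1.6-fold lower in double mutants (log2 change -0.67, edgeR adjusted p 0.00162, SE 0.117) than in WT. These calls were kept in every alternative fit, while others were less stable. When 1 sample was left out, Erbb3 in HER2 mutants against WT lost its call in 4 of 7 fits and Egfr in 2 of 7. Gab1 between double and PIK3CA mutants lost it in 8 of 9 fits. Between double and HER2 mutants, Erbb3 lost its call in 2 of 9 fits and Erbb2 in 6 of 9. Egfr was 1.57-fold lower in HER2 than in PIK3CA mutants (log2 change -0.65, edgeR adjusted p 0.00904, SE 0.123) and 1.46-fold higher in double mutants than with the HER2 mutation alone (0.55 on the log2 scale, edgeR adjusted p 0.0239, SE 0.117). The latter call was lost without HER2 mutant replicate 2, without double mutant replicate 1, with the replicate block (edgeR adjusted p 0.0615) and when these 2 genotypes were fitted alone (0.179). Erbb2, the targeted receptor, had 145 to 188 CPM in WT and PIK3CA mutant samples and 1499 to 4632 CPM in HER2 and double mutant samples.

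Pik3r4, the regulatory subunit of class III PI3K, had 87.8 to 92.2 CPM in WT, 59.5 to 74.0 CPM in HER2 mutants and 54.5 to 72.7 CPM in double mutants (log2 change -0.44 and -0.45, edgeR adjusted p 0.0268 and 0.0163). Pdpk1, the kinase that phosphorylates AKT at the membrane, was 1.25-fold lower in HER2 mutants than in WT (edgeR adjusted p 0.0368) and 1.28-fold lower than in PIK3CA mutants (edgeR adjusted p 0.03). These calls were not stable. In HER2 mutants against WT, Pik3r4 lost its call in 4 of 7 fits that left out 1 sample and Pdpk1 in 5 of 7. Both lost it also with upper-quartile factors, without the filter and in a fit of only these samples, and Pdpk1 with the replicate block (highest edgeR adjusted p 0.117 for Pik3r4 and 0.197 for Pdpk1). Pik3r4 in double mutants lost its call without WT replicate 1 or 3 and without the filter. Pdpk1 between HER2 and PIK3CA mutants lost its call in 5 of 8 fits that left out 1 sample, without the filter, with the block and when both groups were fitted alone. Of 17 genes of the AKT and mTOR list, Pdpk1 was the 1 that fell in HER2 mutants against WT (10.4% of all tested genes called). The 1 that rose in double mutants against WT (11.8%) was Eif4ebp1, an inhibitor of translation under mTOR control, named after its values were seen.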

How the data were processed

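RNA was prepared with RNeasy and SMARTER mRNA-Seq kits, per the labels' protocols. Per the submitters' processing notes, the authors used bcl2fastq 2.20, STAR 2.0.4b, featureCounts 1.4.5 of Subread, DESeq2 1.33.5 and build mm10; the annotation and strand setting are not given in the sources used here. The deposited table holds read counts per gene. A deposited table of normalized signal holds the same counts divided by 1 size factor per sample, which was tested on the values (largest relative spread 4.99e-10).

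Of 55774 rows, 287 repeated an identifier with identical counts and were dropped, which left 55487 genes. Genes with low counts were removed with filterByExpr, counts were scaled by TMM, and 1 edgeR 4.0.16 quasi-likelihood fit of 16 samples with genotype as its factor tested 7 contrasts in 24252 genes, with Benjamini-Hochberg adjustment in each contrast. SE was the absolute log2 fold change divided by the square root of F. Log2 CPM used a prior count of 2. Exon length and positions came from GENCODE M21 (GRCm38), and promoters from RefSeq (GRCm38.p6). The code was tested on simulated data.

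The 9 genes and the lists were chosen with earlier results of these data known. Of the 43 other pathway genes, those called in at least 2 contrasts are named, and for each called member the 2 genes with the highest Pearson r over 16 samples among those with a mean log2 CPM of at least 3 and no predicted-gene or Rik name. No replicate pair agreed within sampling noise, with chi-square per degree of freedom of 22.3 to 459. The lowest value was that of double mutant replicates 4 and 5, while other pairs of double mutants had 110 to 382. Fits without double mutant replicates 2 and 3 keep replicates 4 and 5, and whether these came from separate animals is not given. Alternatives were median-of-ratios and upper-quartile factors, no filter, DESeq2 1.42.0, limma 3.58.1 on log2(signal + 1), fits of only the groups compared, the replicate number as a block, leaving out each sample, and, chosen after seeing the data, leaving out double mutant replicates 2 and 3.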

Additional observations from a re-analysis of the deposited data

Results flagged for a closer look

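Pik3cg stood out in double mutant replicate 1, at 3.99 CPM, far from the other 4 double mutants, which had 0.168 to 1.24 CPM. The gap exceeded Dixon's 95% critical value for 5 samples. Of the 27 groups of 4 or 5 samples looked at for the 9 genes, this was the 1 that did. Chance gives about 1 in 20 groups, so 1 of 27 is no more than chance would give. The check used CPM and not log2 levels.

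Pik3ap1, an adaptor that recruits PI3K in B cells and macrophages, was the 1 gene of the 43 pathway genes whose interaction passed the threshold, with an estimate of -1.98 on the log2 scale (edgeR adjusted p 0.0282, SE 0.401). It had 38.7 to 58.1 CPM in WT, 81.8 to 116 CPM in PIK3CA mutants, 66.6 to 201 CPM in HER2 mutants and 45.5 to 84.9 CPM in double mutants. All single mutant samples were above all WT samples, and the double mutants overlapped with WT. Against WT the log2 fold change was 1.46 in HER2 mutants (edgeR adjusted p 0.00866, SE 0.309; 0.0806 in a fit of only these samples) and 0.56 in double mutants (edgeR adjusted p 0.232). The interaction was lost in 7 of 16 fits that each left out a sample and with the replicate number as a block, with the highest adjusted p at 0.0926. The interaction includes WT, so mutation and tissue source cannot be told apart in it. Mean Pik3ap1 was lowest in WT, where the white blood cell markers were highest, and the part of white blood cells in its level was not tested.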

How the results depend on the processing

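With upper-quartile or median-of-ratios factors, without the filter and with limma, the number of the 9 genes called was the same in all 7 contrasts. In the fit of only the groups compared it was 6 for PIK3CA mutants against WT (1 in the fit of 16 samples), 0 for HER2 mutants against WT (2) and 1 for HER2 against PIK3CA mutants (2). In the same order, 4136 of 22627, 541 of 22823 and 534 of 21433 tested genes were called. The number of the 9 genes with DESeq2 was 3 for PIK3CA mutants against WT, 3 for HER2 against PIK3CA mutants, 1 for double against PIK3CA mutants (0) and 1 for the interaction (0). Here 1814 of 26955, 2127 of 26103, 613 of 22703 and 928 of 26103 tested genes were called. Leaving out 1 sample gave 0 to 3 for HER2 and 2 to 4 for double mutants against WT, both lowest without WT replicate 3. It gave 1 to 2 for double against HER2 mutants, 2 to 3 for HER2 against PIK3CA mutants and 0 to 1 for the interaction.

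Pooled over all genotypes, replicate numbers showed no pairing. Deviations of same-numbered samples had a mean correlation of 0.0122 over 21 pairs, 4 of them over 0.1. For samples of unlike number the mean was -0.00365 over 74 pairs, 10 of them over 0.1. Between HER2 and double mutants the same-numbered values were 0.141, 0.0711, 0.273 and 0.144, and unlike-numbered ones ranged from -0.279 to 0.261. The pooled mean cannot exclude pairing between particular genotypes. With the replicate block the number of the 9 genes called did not change in any contrast, while all genes called went from 2518 to 1625 for HER2 mutants against WT, 606 to 118 for double against HER2, 163 to 19 for double against PIK3CA, 1069 to 552 for HER2 against PIK3CA mutants and 257 to 35 for the interaction. DESeq2 gave 1814, 1652, 613, 2127 and 928 genes for PIK3CA mutants against WT (1096), double against HER2, double against PIK3CA, HER2 against PIK3CA mutants and the interaction. Fits of only the groups compared gave 4136, 541, 37, 364 and 534 for PIK3CA against WT, HER2 against WT, double against HER2, double against PIK3CA and HER2 against PIK3CA mutants. Without double mutant replicates 2 and 3, 1125 genes were called against HER2 mutants and 998 for the interaction. Leaving out 1 sample gave 396 to 1043, 733 to 2693, 1173 to 2961, 256 to 975, 17 to 143, 427 to 1166 and 54 to 382 genes for PIK3CA, HER2 and double mutants against WT, double against HER2, double against PIK3CA, HER2 against PIK3CA mutants and the interaction. Upper-quartile scaling moved the split of higher and lower genes from 249 and 357 to 191 and 441 for double against HER2 and from 536 and 533 to 655 and 442 for HER2 against PIK3CA mutants.

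Of the 43 pathway genes, leaving out 1 sample gave 2 to 3 called for PIK3CA, 5 to 11 for HER2 and 7 to 10 for double mutants against WT, 1 to 3 for double against HER2 (1 without double mutant replicate 5), 2 to 4 for double against PIK3CA, 4 to 6 for HER2 against PIK3CA mutants and 0 to 3 for the interaction. Double against PIK3CA mutants had 2 without the filter and with the block. The interaction had 3 without the filter, 0 with the block, 6 with DESeq2, 2 with limma and 4 without double mutant replicates 2 and 3.

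Of 468 member estimates in the other settings, 437 kept direction and side of the threshold, 10 gained and 4 lost a call, and 17 changed sign, none of them called. The sign changes without double mutant replicates 2 and 3 were in Pik3cb (-0.32 against WT, -0.48 against HER2, -0.49 against PIK3CA mutants and -0.66 in the interaction), Pik3r3 (0.47 against HER2), Pik3cg and Pik3cd (0.12 and 0.0027 against PIK3CA) and Phlpp1 (0.053 in the interaction). With the block they were in Pik3r2 (-0.001 for double mutants against WT and -0.0041 against PIK3CA) and Inpp4b (-0.12, double against HER2). Upper-quartile scaling gave 0.017 for Pik3r2 in HER2 mutants against WT, and 0.046 for HER2 against PIK3CA and -0.012 in the interaction for Pik3cb. Pik3r3 between double and HER2 mutants was 0.0081 without the filter and 0.27 with limma, which gave -0.052 for the Pik3cb interaction.

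Leaving out 1 sample changed signs of uncalled values in these ranges. In HER2 mutants against WT, Pik3r2 ranged from -0.066 to 0.0056 and Pik3cb from -0.057 to 0.37. In double against HER2 mutants, Pik3r3 ranged from -0.34 to 0.90, Pik3cb from -0.081 to 0.42, Inpp4b from -0.20 to 0.70 and Pik3r1 from -0.078 to 0.29. Pik3cb ranged from -0.090 to 0.33 in double and from -0.23 to 0.19 in HER2 against PIK3CA mutants, where Pik3cg ranged from -0.0061 to 2.08. The interaction ranged from -0.26 to 0.24 for Pik3cb and from -0.15 to 0.075 for Phlpp1. The causes were not tested. Depth did not limit the abundant genes, while Pik3cg had as few as 8 and Inpp4b as few as 16 counts in a sample, where 3 counts were 0.0468 to 0.0659 CPM.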
